A study of Mus musculus with 11 samples.

Results

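Neat1 and Malat1 are neighbouring mouse genes for long noncoding RNAs that stay in the nucleus. They are 2 of the 32044 annotated genes that are not pseudogenes, and they were chosen by name and position. Neat1 (ENSMUSG00000092274.1) lies at chr19:5824708-5845478 on the minus strand of the mm9 genome, and Malat1 (ENSMUSG00000092341.1) lies downstream of it at chr19:5795690-5802671 on the same strand. Each gene was analysed with 5 kb on each side, and the 22036 bases between the genes were analysed as the gap. The stretch from 5 kb past the Malat1 end to 5 kb before the Neat1 start, called the locus here, is 59789 bases long and held 1110 of the 831994 HIV integration sites of the series. That is 0.133% of the sites in 0.00227% of the genome.

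The libraries record where HIV inserted its DNA in mouse embryonic fibroblasts (MEF) of strain C57BL/6 that lack LEDGF. LEDGF is the chromatin protein that normally guides HIV integrase to genes, through its integrase-binding domain (IBD). Cells were electroporated with a plasmid for 1 nuclear protein fused to this domain, infected with HIV 24 hours later and grown for 3 more days, so that sites near a gene report where the fused protein brought the virus (HIT-seq). SPT5 gave 1 library, NELF 4 (NELFA, NELFB, NELFCD and NELFE), SOSS 4 (INTS3, NABP1, NABP2 and INIP), and INTS9 with INTS11 2. The SOSS, INTS9 and INTS11 libraries are called the Integrator side below, with 6 libraries. All 11 libraries share the LEDGF deletion, and cells without a fused protein were not analysed here. Libraries held 18753 (NELFE) to 197069 (INTS9) distinct sites. Each protein has 1 library, so p-values measure the spread between subunits, which may be technical. On the Integrator side, tested as 1 group against NELF, this spread also holds the difference between SOSS and INTS9 with INTS11. By the read names, the 4 NELF libraries were run together with no other library of the series on their flow cell. SPT5 was the only library of the series on another. The effect of the protein and that of the flow cell thus cannot be told apart.

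Neat1 RNA is the scaffold of paraspeckles and is made as a short and a long isoform from the same start. Malat1 RNA is abundant in nuclear speckles, and its 3′ end is cut by RNase P just before a tRNA-like piece. SPT5, part of the elongation factor DSIF, binds RNA polymerase II and travels with it. NELF holds the polymerase paused shortly after the start together with DSIF. Integrator, whose INTS9 and INTS11 subunits form its endonuclease, cleaves nascent RNA at snRNA genes and at paused polymerases. INTS3 is shared with SOSS, a complex that binds single-stranded DNA.

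The start of Malat1 is shown first, because the position tests called below concern it. The sequence runs from 250 bases before the start to 50 bases after it, at chr19:5802622-5802921, 5′ to 3′ on the minus strand in mm9. Capitals mark each base that was the first genomic base past the viral end in any of the 11 libraries.
Malat1: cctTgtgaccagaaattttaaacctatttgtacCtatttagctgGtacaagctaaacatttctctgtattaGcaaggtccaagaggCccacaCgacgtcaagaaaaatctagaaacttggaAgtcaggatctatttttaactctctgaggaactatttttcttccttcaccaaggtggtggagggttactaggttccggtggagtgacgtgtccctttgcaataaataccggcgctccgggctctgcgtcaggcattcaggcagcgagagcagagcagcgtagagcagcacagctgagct

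In this sequence 7 bases were hit, by 8 sites, all of them 129 or more bases before the start. Searched on both strands, the letters TGACG occurred 3 times and are held by 19.9% of the promoters of this length over 32044 genes. The TATA-box letters TATAAA (15.03% of promoters), GGGCGG (34.2%) and CCAAT (38.5%) did not occur. These matches describe the letters alone.

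By sites in the window, Neat1 ranked 2nd of 32044 genes in SPT5, 16th to 47th in the NELF libraries, 15th in INTS3, 5th in NABP1 and 9th in NABP2, but 337th in INIP, 348th in INTS9 and 92nd in INTS11. In the SPT5 library the Neat1 window held 113 sites per 100000 sites of the library (93 sites). The NELF libraries gave 69.7 for NELFA, 113 for NELFB, 60.6 for NELFCD and 96.0 for NELFE. On the Integrator side the values were 55.03 for INTS3, 69.0 for NABP1, 91.8 for NABP2, 20.1 for INIP, 18.3 for INTS9 and 32.4 for INTS11. SPT5 and NELFB were therefore highest, INIP, INTS9 and INTS11 lowest, and the NELF and Integrator ranges overlapped. Over 1224 tested genes, 10.5% had every NELF level above every Integrator level. By the mean over the 11 libraries, Neat1 ranked 4th of 32044 genes, and 79th per kb of window.

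Malat1, with the shorter window, had fewer sites than Neat1 in every library except INTS11. In the SPT5 library it held 71.9 sites per 100000 (59 sites). NELFA gave 36.5, NELFB 67.8, NELFCD 46.0 and NELFE 42.7. INTS3 gave 50.9, NABP1 58.9, NABP2 90.7, INIP 16.1, INTS9 16.2 and INTS11 35.4. NABP2 was highest and INIP and INTS9 lowest, and all 4 NELF values fell inside the Integrator range. The mean level of Malat1 ranked 26th of 32044 genes, and 57th per kb of window. Per kb, Malat1 was the 2nd gene of the genome in both the NABP1 and the NABP2 library, and the 82nd to 177th in the NELF libraries. For both genes, all 20 pairs of neighbours in the order of the libraries had overlapping exact Poisson 95% intervals, which cover counting error only. The precision differed widely, with 5 Neat1 and 4 Malat1 sites in INIP and 130 and 111 in NABP1.

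**Figure D1:**
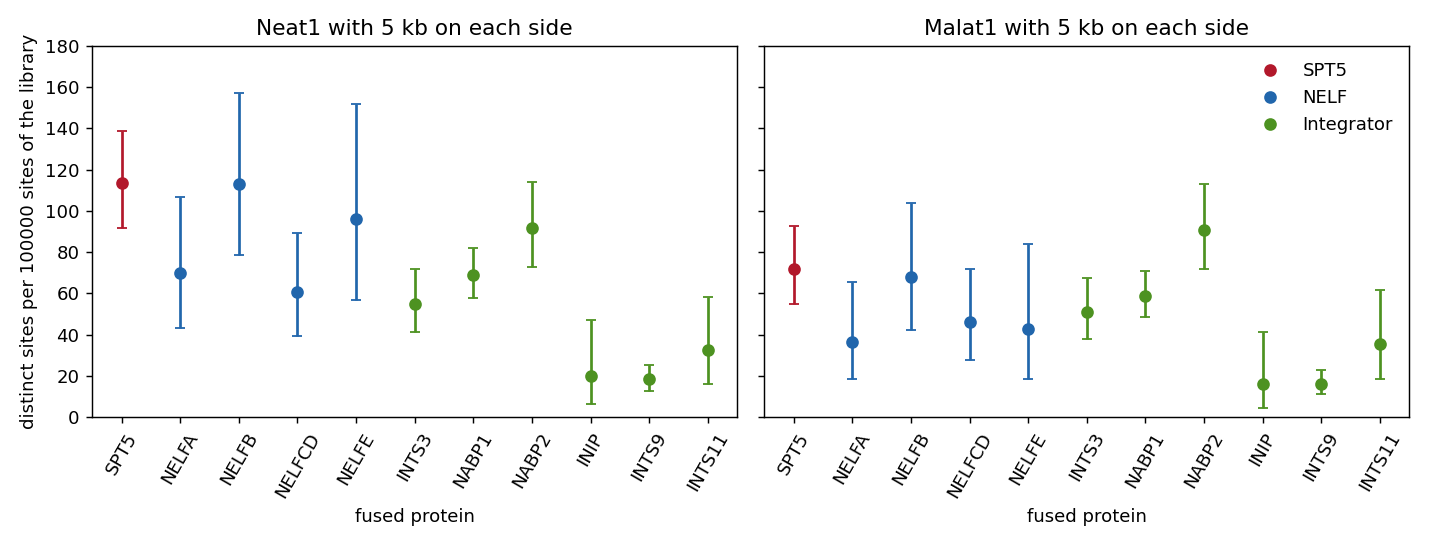
Distinct integration sites per 100000 sites of the library (y axis) in the Neat1 and Malat1 windows for each fused protein (x axis), with exact Poisson 95% intervals as bars. SPT5 and NELFB sit at 113 for Neat1, while INIP, INTS9 and INTS11 sit between 18.3 and 32.4.

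Whether the families differed at these genes was tested in 1 limma fit over 1224 genes, on log2(sites per 100000 + 1). NELF averaged 84.8 ± 24.1 sites per 100000 at Neat1 (SD, n = 4) and the Integrator side 47.8 ± 29.4 (SD, n = 6). The log2 fold change was 1.01 (SE 0.43), and it missed the threshold of 0.05 (limma, adjusted p = 0.158). At Malat1 the means were 48.3 ± 13.6 for NELF (SD, n = 4) and 44.7 ± 28.5 for the Integrator side (SD, n = 6), with a log2 fold change of 0.33 (SE 0.45) that also missed it (limma, adjusted p = 0.689). In the same comparison 94 of the 1224 genes (7.68%) were higher with NELF and 5 (0.408%) lower, and the median log2 fold change over all of them was 0.01.

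The Neat1 difference depended on single libraries and on the flank. Without the NABP2 library it was 1.25 and passed the threshold (limma, adjusted p = 0.0467), against a range of 0.0467 to 0.340 when each library was left out in turn. Counted over the annotated genes with no flank, the log2 fold change of NELF over the Integrator side was 0.17 at Neat1 and -0.53 at Malat1.

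SPT5 was set against each side with its 1 library assumed to vary like the others, so that a missed threshold here says little. Against the Integrator side the log2 fold change was 1.47 (SE 0.71) at Neat1 (limma, adjusted p = 0.422) and 0.94 (SE 0.75) at Malat1 (limma, adjusted p = 0.636). Against NELF it was 0.46 at Neat1 and 0.60 at Malat1, both with a limma adjusted p of 0.96. Limma called 0 of 1224 genes in either comparison, with 139 and 51 genes at an unadjusted p under 0.05.

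Within the Integrator side, SOSS averaged 59.0 ± 30.0 sites per 100000 at Neat1 (SD, n = 4) and INTS9 with INTS11 25.3 ± 10.001 (SD, n = 2). The log2 fold change was 1.05 (SE 0.52) at Neat1 (limma, adjusted p = 0.568) and 0.91 (SE 0.57) at Malat1 (limma, adjusted p = 0.704). Limma called 0 genes here, with 117 at an unadjusted p under 0.05. INIP was the lowest SOSS library at both genes. Without it the Neat1 difference was 1.49 and passed the threshold (limma, adjusted p = 0.0443), and 38 of 1460 genes tested were called.

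**Figure D2:**
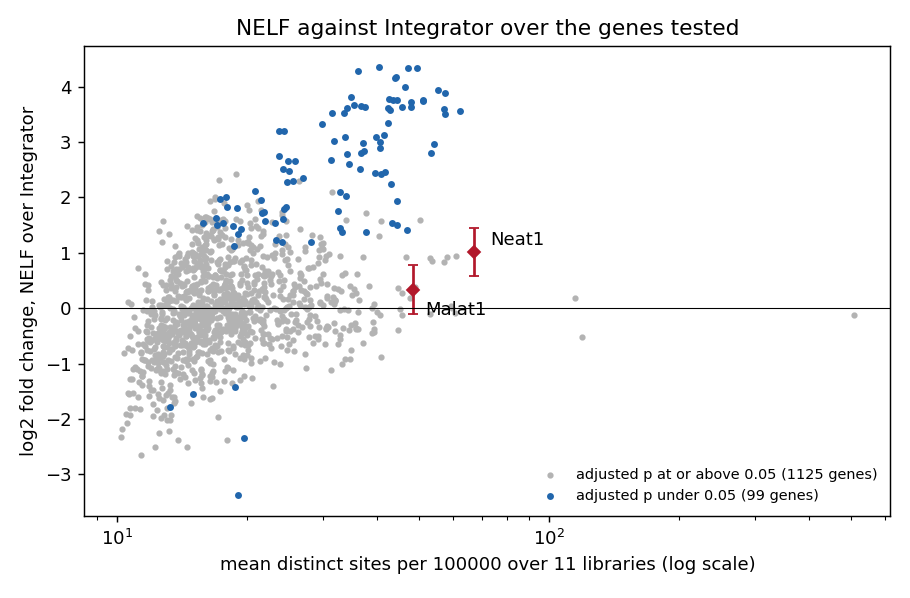
Log2 fold change of NELF over the Integrator side (y axis) against the mean sites per 100000 over 11 libraries (x axis, log scale) for the 1224 genes tested; diamonds with SE bars mark Neat1 at 1.01 and Malat1 at 0.33. Both stand among the genes with the highest levels and below the called genes of like level.

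NABP1, NABP2 and INTS9 were sequenced on more than 1 flow cell, which shows how far a level moves between runs. On the flow cell that all of them shared, Neat1 held 73.7 sites per 100000 in NABP1, 96.0 in NABP2 and 19.2 in INTS9. Malat1 held 52.0 in NABP1, 72.7 in NABP2 and 17.5 in INTS9. The order was thus the same within that flow cell as over all runs, of which it is a large part. On their other flow cells, Neat1 held 64.0 in NABP1, 78.3 in NABP2 and 9.79 in INTS9 (2 sites). Malat1 held 67.6 in NABP1 and 4.89 in INTS9 (1 site) there. NABP2 at Malat1 differed between its runs, with 72.7 per 100000 (95% Poisson interval 54.5 to 95.1) on the shared flow cell and 176 (116 to 256) on another. NABP1 and NABP2 were in the same lane of the shared flow cell, and their part in each other's values was not tested.

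The balance between the windows of the genes, flanks included, differed between NELF and Integrator. Of the sites in both windows, 61.2% lay at Neat1 in the SPT5 library. The share was 65.6% in NELFA, 62.5% in NELFB, 56.8% in NELFCD and 69.2% in NELFE. On the Integrator side it lay between 47.8% (INTS11) and 55.6% (INIP), so that every NELF library was above every Integrator library. The means were 63.5% ± 5.26 for NELF and 52.1% ± 2.74 for the Integrator side, a difference of 11.5 percentage points (exact two-sided permutation test, p = 0.00476, the smallest that 210 splits can give). How often other pairs of genes show no overlap was not computed. Of the Neat1 window sites, 51 of 99 in NELF and 73 of 316 on the Integrator side lay 1 to 5 kb upstream. Of these, 26 and 48 lay within 1 kb of the start of Gm9783, a neighbouring gene. With 2 kb on each side the difference was 7.73 points (exact permutation p = 0.0762). In an alternative chosen after the data had been seen, INTS9, NABP1 and NABP2 were reduced to the runs whose read names carry NCI-GA, as those of all NELF libraries do. The difference was then 13.3 points and missed the threshold (exact permutation p = 0.0619). INTS9 then had 2 of 3 sites at Neat1 (66.7%), above NELFA, NELFB and NELFCD, while the runs of NABP2 ranged from 30.8% to 56.9%. With HWI-ST runs alone for INTS9, NABP1 and NABP2, the difference was 9.68 points and passed the threshold (exact permutation p = 0.019). Since NELF has NCI-GA runs only, this setting cannot separate side from machine.

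NELF sites at Malat1 gathered at the start. Within 1 kb of the start lay 8 of 11 Malat1 sites in NELFA (72.7%), 10 of 21 in NELFB (47.6%), 11 of 19 in NELFCD (57.9%) and 4 of 8 in NELFE. The Integrator shares were 14.3% in INTS3, 13.5% in NABP1, 17.5% in NABP2, 0 of 4 sites in INIP, 31.25% in INTS9 and 33.3% in INTS11. Every NELF share was thus above every Integrator share, as in 4.66% of the 966 tested genes with a site in each NELF and Integrator library. NELF averaged 57.1% ± 11.3 and the Integrator side 18.3% ± 12.4, a difference of 38.7 points (exact permutation test, p = 0.00476, adjusted over 7 position tests 0.0167). The median difference over the 966 genes was 4.96 points.

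The body of Malat1, from 1 kb inside the start to 1 kb inside the end, showed the opposite. It took 9.09% of the Malat1 sites in NELFA, 14.3% in NELFB, 5.26% in NELFCD and 12.5% in NELFE. On the Integrator side the lowest share was 34.7% in INTS3 and the highest 3 of 4 sites in INIP, again without overlap, which 4.76% of the 966 genes showed in this direction. The means were 10.3% ± 3.98 for NELF and 48.2% ± 14.6 for the Integrator side, a difference of -37.9 points (exact permutation test, adjusted p = 0.0167). The SPT5 library had 44.1% of its Malat1 sites in the body and 23.7% within 1 kb of the end, where NELF averaged 1.32% ± 2.63 and the Integrator side 9.72% ± 6.81 (exact permutation test of NELF against Integrator, adjusted p = 0.0917).

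These Malat1 shares rest on 59 NELF sites, and the calls depended on widths and runs. The start share missed the threshold with 500 bases (16.5 points, exact permutation test, adjusted p = 0.122) or 2 kb (37.4 points, adjusted p = 0.0667) on each side of the start. With 2 kb the body difference was -20.9 points and missed it too (exact permutation test, adjusted p = 0.0667). With NCI-GA runs alone for INTS9, NABP1 and NABP2, the start difference was 23.9 points (exact permutation test, adjusted p = 0.417) and the body difference -27.9 points (adjusted p = 0.233). INTS9 then had 1 Malat1 site, which lay at the start, while the shares at the start of the other 5 Integrator libraries were 0 to 33.3%. The start share also moved with the run in NABP1, from 5.45% (HWI-ST) to 21.4% (NCI-GA), and in NABP2, from 11.3% to 29.6%. The body share went from 56.4% to 51.8% in NABP1 and from 47.2% to 25.9% in NABP2. The cause was not tested. With HWI-ST runs alone for INTS9, NABP1 and NABP2, both calls were kept, at 41.5 and -39.7 points (exact permutation test, adjusted p = 0.0167 each). That setting compares HWI-ST runs of these proteins with NCI-GA runs of NELF. A kept call there cannot separate side from machine.

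**Figure D3:**
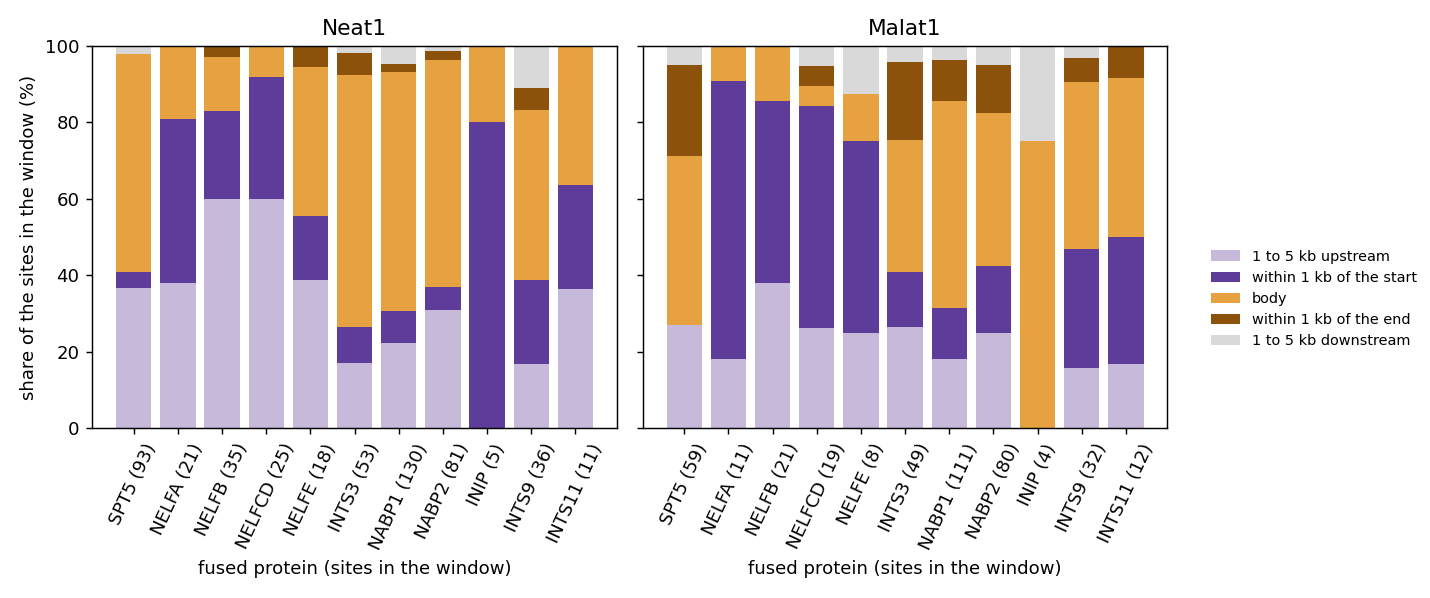
Share of the sites in the Neat1 and Malat1 windows (y axis, %) by position along the gene, for each fused protein (x axis, with the number of sites). In the Malat1 panel the share within 1 kb of the start is 47.6% or more in each NELF library, at most 33.3% in the Integrator libraries and 0 in SPT5.

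At Neat1 the same division was less sharp. The share within 1 kb of the start was 42.9% in NELFA, 22.9% in NELFB, 32.0% in NELFCD and 16.7% in NELFE. It was 80.0% in INIP, from 4 of 5 sites, and 6.17% to 27.3% in the other 5 Integrator libraries, so that the sides overlapped. The means of 28.6% ± 11.4 for NELF and 25.6% ± 27.95 for the Integrator side differed by less than the spread between libraries (exact permutation test, adjusted p = 0.89). SPT5 had 4.30% of its Neat1 sites there.

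In the Neat1 body lay 57.0% of the SPT5 sites. NELF shares were 19.05% in NELFA, 14.3% in NELFB, 2 of 25 sites in NELFCD and 38.9% in NELFE, and Integrator shares ranged from 1 of 5 sites in INIP to 66.0% in INTS3. NELF averaged 20.1% ± 13.3 and the Integrator side 48.1% ± 17.8, which missed the threshold after adjustment (exact permutation test, adjusted p = 0.0778). It passed without INIP (-33.6 points, exact permutation test, adjusted p = 0.0417, in a range of 0.0417 to 0.167 when each library was left out). The 16598 of 18769 body bases that belong to the long isoform alone held 46 of 53 body sites in SPT5, 12 of 18 in NELF and 132 of 185 on the Integrator side. Per base they were hit less than the short isoform part of the body, by family means: 89.2 against 104 times the density of uniform integration in SPT5, 20.1 against 63.7 times in NELF and 29.7 against 92.4 times on the Integrator side.

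NELF sites of the Neat1 window lay largely before the start. From 1 to 5 kb upstream, NELFA had 38.1% of its window sites, NELFB 21 of 35 sites, NELFCD 15 of 25 sites and NELFE 38.9%, and SPT5 had 36.6%. The Integrator shares ran from 0% in INIP to 36.4% in INTS11. This share was tested after it had been seen, with 4 others. NELF averaged 49.2% ± 12.4 and the Integrator side 20.5% ± 12.7 (exact permutation test, adjusted over these 5, p = 0.0476). The call was lost in 9 of 10 cases when a library was left out, and the difference ranged from 24.6 to 32.4 points. Without a NELF library, the fewer splits hold a single share of these 5 at 0.0595 or more (exact permutation, adjusted p). Losses there were thus fixed in advance unless another share was as extreme. The stretch holds the start of Gm9783, a noncoding gene on the plus strand that points away from Neat1 from 3030 bases upstream. Within 1 kb of that start lay 18 SPT5 sites, 26 NELF sites and 48 Integrator sites. As levels these were 21.9 per 100000 in SPT5, 21.0 ± 12.4 in NELF (SD, n = 4) and 7.37 ± 6.27 on the Integrator side (SD, n = 6).

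**Figure D4:**
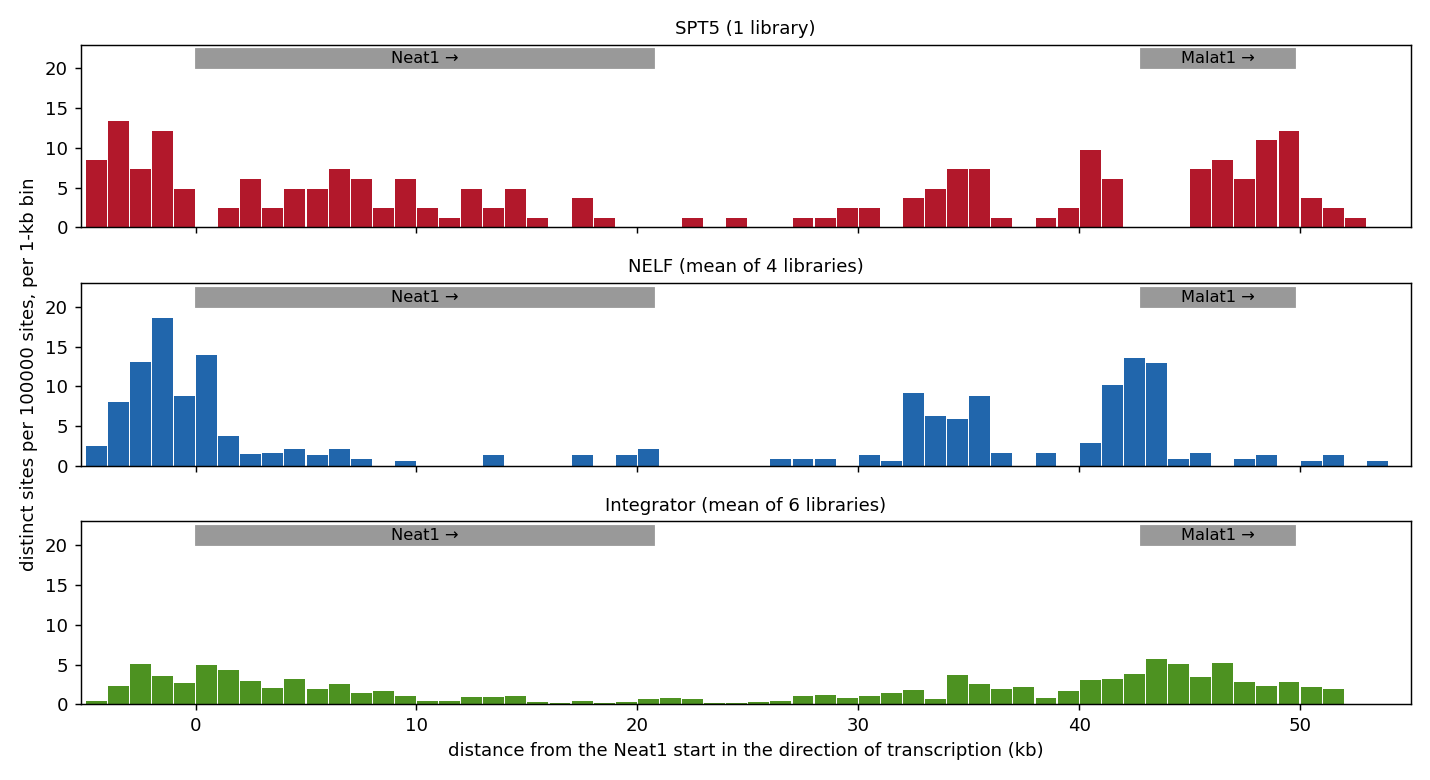
Distinct sites per 100000 sites in 1-kb bins (y axis) against distance from the Neat1 start along transcription (x axis, kb), as the SPT5 value and the means over 4 NELF and 6 Integrator libraries. NELF reaches 18.5 in the bin 2 to 1 kb before the Neat1 start, 14.01 in the first kb after it, and 13.6 and 12.9 around the Malat1 start, with a lower cluster of at most 9.12 per bin in the gap.

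Around the starts SPT5 sites were sparse. At Malat1 its nearest sites lay 1346 bases before and 2555 bases after the start, which leaves 3900 bases without a site. The stretch is bounded by the SPT5 sites themselves, so that its emptiness in SPT5 is a description. The NELF libraries held 44 sites in those bases and the Integrator libraries 111, while INIP, with 4 Malat1 sites, had a longer stretch of 8228 bases without a site around this start. SPT5 had 0 of 59 Malat1 sites within 1 kb of the start. A limit of 3 counts allows a share of up to 5.08%, and the exact binomial 95% interval reaches 6.06%. At Neat1 the SPT5 sites nearest to the start lay 783 bases before and 1912 bases after it, with 30 NELF sites and 63 Integrator sites between. Among the 23 genes with at least 50 SPT5 sites, 4 (17.4%), Malat1 included, had none within 1 kb of the start, and the median share there was 7.84%. In all libraries together, 217 bases around the Malat1 start held no site.

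Expressed as density, the first kb on both sides of the starts had the highest family mean in NELF. At Neat1 NELF reached 300 ± 82.5 times the density of uniform integration and the Integrator side 100 ± 58.5 times, with SPT5 at 64.3 times. Single libraries overlapped there, with INIP at 212 times and NELFE at 211 times. At Malat1 NELF reached 352 ± 59.1 times and the Integrator side 105 ± 72.1 times. In the Malat1 body the densities were 168 times uniform in SPT5, 27.5 ± 17.1 times in NELF and 106 ± 61.3 times on the Integrator side. These densities are descriptions and were not tested.

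The gap between the genes was not empty. It held 24.7% of the locus sites in SPT5, 38.0% ± 12.2 in NELF and 27.9% ± 9.29 on the Integrator side, a difference between NELF and Integrator that missed the threshold (exact permutation test, adjusted p = 0.267). These shares include the 5 kb of each gene window that lies in the gap. The middle of the gap, outside both windows, held 14.6% in SPT5, 21.0% ± 9.02 in NELF and 16.0% ± 3.97 on the Integrator side, which was not tested. The sites gathered 6808 to 10807 bases upstream of the Malat1 start, at chr19:5809479-5813478, where the annotation names no gene. This stretch, chosen after the sites had been seen, held 19 sites in SPT5, 37 in NELF and 60 on the Integrator side. In NELF it had 36.5 sites per 100000 in NELFA, 48.5 in NELFB, 19.4 in NELFCD and 16.0 in NELFE, and on the Integrator side from 2.95 in INTS11 to 14.7 in NABP2. SPT5 had 23.2 per 100000.

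**Figure D5:**
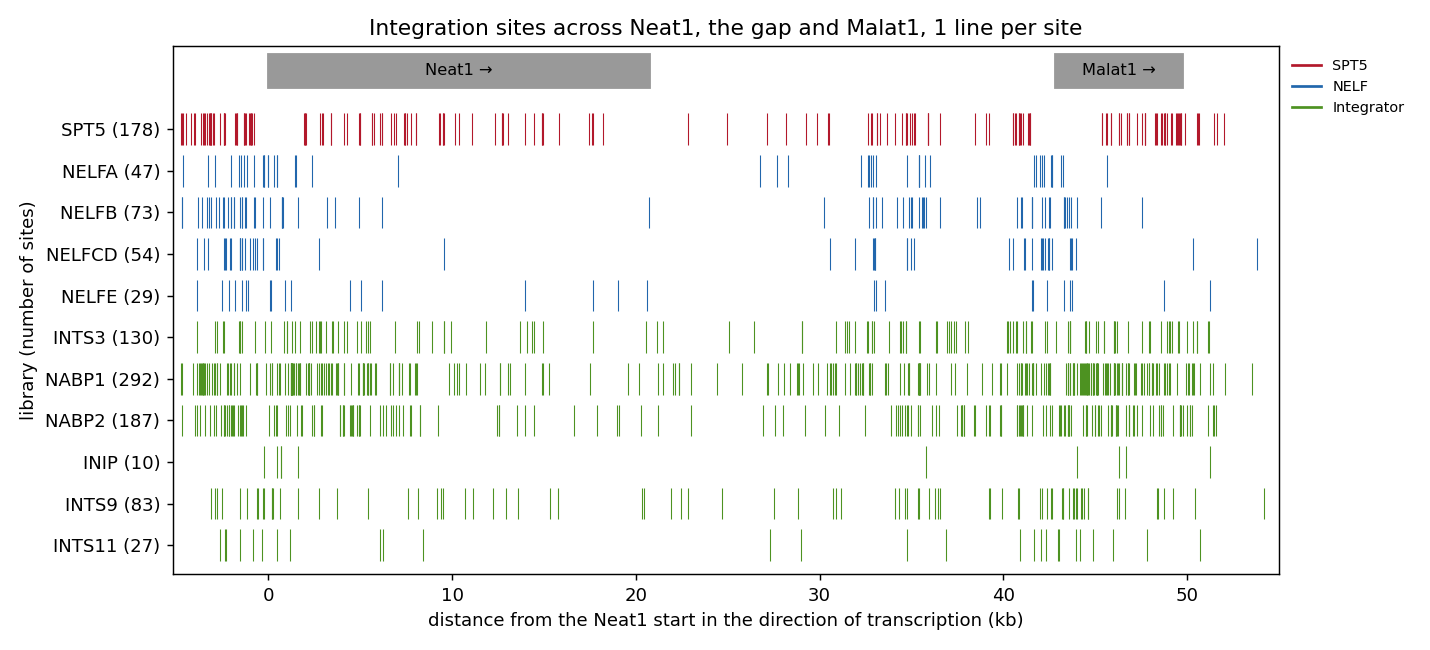
Every distinct site of the locus as 1 line, by library (rows, with the number of sites) and distance from the Neat1 start along transcription (x axis, kb), with both genes as grey bars. SPT5 lines are absent around both starts, and NELF lines gather before and at the starts and in the gap.

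The locus stood above its surroundings in every library. Its density was 8.36 times that of the 500 kb on each side in SPT5, 5.44 to 11.97 times in NELF and 3.77 to 9.17 times on the Integrator side, with the lowest values in INTS9 and INIP. The provirus lay on the strand of the genes at 54.9% of the 1110 sites (95% exact binomial interval 51.9 to 57.8%), at 58.7% of the 508 Neat1 sites (54.2 to 63.0%) and at 53.4% of the 406 Malat1 sites (48.5 to 58.4%). NABP1 alone had 67.7% of its 130 Neat1 sites on that strand. Without NABP1, chosen after the values had been seen, the share was 53.4% of 818 locus sites (49.9 to 56.9%) and 55.6% of 378 Neat1 sites (50.4 to 60.6%). Over all 831994 sites, 50.1% lay on the minus strand.

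Some bases of the locus were hit in more than 1 library. Of 1054 combinations of base and strand, 50 (4.74%) occurred in 2 or more libraries, against 0.638% over all chromosomes. The locus holds 0.133% of the sites in 0.00227% of the genome, and denser sites fall on the same base more often. These shares therefore do not show that bases recur more here than the density gives, which was not tested. The 5 that occurred in 3 or more are printed because they are the positions that recur most here. Each runs over 31 bases on the strand of the provirus, with capitals on the 5 bases, from the first past the viral end, that HIV integration duplicates, and is named by its distance from a gene start.
Neat1 1569 upstream: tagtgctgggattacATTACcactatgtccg
Neat1 1442 upstream: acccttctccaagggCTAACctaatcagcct
Neat1 474 downstream: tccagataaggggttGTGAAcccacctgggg
Neat1 6182 downstream: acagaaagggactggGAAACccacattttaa
Malat1 2257 upstream: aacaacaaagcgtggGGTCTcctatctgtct

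The base 474 bases downstream of the Neat1 start was hit in 4 libraries, NELFA, NELFCD, NABP1 and INIP. It lies at chr19:5844989-5845019 on the minus strand. The base 1569 bases upstream was hit in NELFCD, NABP1 and NABP2 (chr19:5847032-5847062, plus strand), and that 1442 bases upstream in NELFB, NELFE and INTS3 (chr19:5846905-5846935, plus strand). The base 6182 bases downstream was shared by SPT5, NELFB and NELFE (chr19:5839281-5839311, plus strand). The base 2257 bases upstream of Malat1 was shared by SPT5, NELFCD and INTS3 (chr19:5804913-5804943, minus strand). Only the last 2 held an SPT5 site. Repeated insertion and carry-over of DNA between libraries cannot be told apart from these files.

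Genes for the proteins of the nuclear bodies that these RNAs belong to had lower mean levels than Neat1 and Malat1. So did nearly all genes, since Neat1 ranked 4th and Malat1 26th of 32044 by mean level. Of 21 paraspeckle protein genes 5 had enough sites to be tested, and limma called 0 of them for NELF against Integrator, with 0 at an unadjusted p under 0.05, against 7.68% higher and 0.408% lower over all genes tested. Their median log2 fold change was 0.26, beside 0.01 over all genes tested. Dazap1, for an RNA-binding protein, led with a mean of 20.01 sites per 100000 over the 11 libraries, and Sfpq, for a core paraspeckle protein, had 9.60. Of 15 nuclear speckle genes 3 were tested, and 1 was called higher with NELF, as were 7.68% of all genes tested. That gene, Srsf2, for a splicing factor, rose with NELF, at 29.4 ± 6.67 sites per 100000 in NELF (SD, n = 4) and 11.1 ± 7.68 on the Integrator side (SD, n = 6; log2 fold change 1.57, SE 0.47, limma, adjusted p = 0.048). Son, for a speckle scaffold protein, had a log2 fold change of 0.70 (limma, adjusted p = 0.384), and Srsf3, for another splicing factor, one of -0.71 (limma, adjusted p = 0.423).

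Other long noncoding RNA genes matched by name had lower mean levels over the 11 libraries than Neat1 and Malat1, as did nearly all genes. Of 13 listed, 10 were matched by name and 1, Pvt1, had enough sites to be tested. Pvt1 had 10.97 sites per 100000 in SPT5, 28.4 ± 4.05 in NELF (SD, n = 4) and 31.9 ± 7.70 on the Integrator side (SD, n = 6; log2 fold change -0.14, limma, adjusted p = 0.819). Gas5, a host gene of small nucleolar RNAs, had 31.7 in SPT5, 6.83 ± 4.43 in NELF and 4.02 ± 1.26 on the Integrator side. Of the 10 genes for RNase P and the tRNA 3′ processing enzyme, which process the Malat1 end, none had enough sites to be tested, and the highest mean was 2.83 per 100000, at Rpp38.

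Over the 11 libraries the levels of Neat1 and Malat1 moved together, with a Pearson r of 0.90 on the log2 scale. The genes most like Neat1 among 1214 searched were Fkbp2 (r = 0.93), Gm14488, 2610203C20Rik, Vars and D17H6S56E-5. Vars and D17H6S56E-5 overlap on chromosome 17, so that sites in both windows count for each of them. Those most like Malat1 were Pkm2 (r = 0.95), Polr2a (0.91), Mknk2, Ahnak and Brd2. All these values share the same 11 libraries and their depths, and they are given as descriptions.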

How the data were processed

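The files deposited by the authors hold a unit other than counts: 1 entry per mapped junction, with its position and strand. The genome build is mm9, per the submitters' processing notes, while the aligner and the filters behind an entry were not given in the sources used here. Entries with the same position and strand were counted as 1 site, and runs of a protein were pooled as 1 library (18753 to 197069 sites). Genes came from a GENCODE annotation of the same build. Members and lists were chosen with earlier results of these data known.

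Levels are sites per 100000 sites of a library in a gene with 5 kb on each side. limma 3.58.1 (R 4.3.3, trend and robust) was fitted on log2(level + 1) for 1224 genes that averaged 10 or more sites, all 11 libraries sharing 1 estimate of the spread, with Benjamini-Hochberg adjustment over these genes. Shares by position were compared with exact two-sided permutation tests over 210 splits (scipy 1.17.1), adjusted over 7 tests. Shares over other genes used the 966 of them with a site in each NELF and Integrator library. Intervals are exact Poisson or exact binomial at 95%, and intervals and the floor of 3 counts cover counting error only. Both tests were tested on simulated data. Alternatives were the flank, the pseudocount (0.5), the filter, merging sites within 5 bases, leaving out histone genes from the totals, the promoter width and each library left out. Runs split by the machine name in the read names (NCI-GA or HWI-ST) were an addition made once the data were known, and the labels name GAIIx and HiSeq instruments without saying which library used which. Genes named as similar were the 5 with the highest Pearson r over the libraries. Sequences were read from the mm9 genome, and some items are not reported here.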

Additional observations from a re-analysis of the deposited data

Results flagged for a closer look

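In 8 of 45 groups of shares checked, 1 library stood far from the others of its group. The rule takes chance to give this in about 1 in 20 groups. The groups overlap, since SOSS libraries are also on the Integrator side, so that these rates cannot show an excess. In 7 of the 8 the library was INIP, with 5 Neat1 and 4 Malat1 sites. INIP had 80.0% of its Neat1 sites within 1 kb of the start, which stood apart both among the SOSS libraries and on the whole Integrator side. It had 20% of its Neat1 sites in the body and 0.0% in the long isoform part of the body, both apart from the other SOSS libraries. Its 25% of Malat1 sites 1 to 5 kb past the end, from 1 site, stood apart in both groups, and its 10% of locus sites in the gap stood apart on the Integrator side. The remaining one was NELFCD, where 5.26% of the Malat1 sites, 1 of 19, lay within 1 kb of the end, against 0 in the other NELF libraries.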

How the results depend on the processing

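No paired analysis was possible because the labels carry no replicate numbers, and the numbers here follow accession order. With no flank, Malat1 for NELF over Integrator turned to -0.53, and 5 genes passed the threshold in place of 99; with every gene that had at least 1 site in any library, 149 passed, and 15 for SPT5 over Integrator. With NCI-GA runs alone, of 226 genes tested, 58 passed for NELF over Integrator and 8 for SOSS over INTS9 with INTS11; the Neat1 share difference was 13.3 points (exact permutation p = 0.0619), the Malat1 start 23.9, the Malat1 body -27.9, the Neat1 upstream share 27.2 and the Neat1 3′ end 0.845. With 2 kb on each side of the genes, the Neat1 share difference was 7.73 points. With 500 bases on each side of starts and ends, the Neat1 body difference was -31.2 (exact permutation, adjusted p = 0.05), the Neat1 3′ end 0.00859 and the Malat1 start 16.5; with 2 kb, the Malat1 start was 37.4 and the body -20.9, and both calls were lost. The cause was not tested.

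Leaving out each library in turn, the log2 fold change of NELF over Integrator ranged from 0.79 to 1.25 at Neat1. That of SOSS over INTS9 with INTS11 ranged from 0.66 to 1.49. For NELF over Integrator, from 70 of 1392 genes tested (without NELFB) to 120 of 1108 (without NABP2) passed. For SOSS over INTS9 with INTS11, 38 of 1460 passed without INIP, and 0 without any other SOSS library. In percentage points of NELF minus Integrator, the ranges were -1.75 to 13.9 (Neat1 start), -34.3 to -24.0 (Neat1 body), -1.71 to 0.139 (Neat1 3′ end), 33.5 to 41.9 (Malat1 start), -40.6 to -32.5 (Malat1 body), -10.3 to -6.26 (Malat1 3′ end), 24.6 to 32.4 (Neat1 upstream) and -5.05 to 1.28 (Malat1 downstream). The Malat1 start and body calls held in all 10 of these (exact permutation, adjusted p 0.0278 to 0.0417). The Malat1 3′ end passed without INIP (exact permutation, adjusted p = 0.037). Merging sites moved no call among the levels, the Neat1 share, the gap and the start, body and 3′ end shares, and was not run for the shares added later. The pseudocount and the histone genes moved no level call. Depth limits the shares of INIP most.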

Other observations

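Levels of genes next to Neat1 and Malat1 varied widely. Per kb of gene, Gm9783 had 7.66 sites per 100000 in SPT5, 3.65 in NELF and 1.32 on the Integrator side, beside 3.11, 1.64 and 1.53 in Neat1 and 6.29, 2.51 and 3.91 in Malat1. Frmd8, the protein-coding gene upstream of Neat1 on the same strand, had 0.334 in SPT5, 0.419 in NELF and 0.306 on the Integrator side, and its end lies inside the Neat1 window. Gm20417 lies within Malat1 on the other strand, so that its 20 sites are also Malat1 sites.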
